A study of Mus musculus with 8 samples.

Results

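Periportal hepatocytes line the side of the liver lobule where blood enters. They carry out most of the urea cycle, which turns ammonia into urea, and they break down amino acids such as glutamine, serine and histidine. Pericentral hepatocytes at the outflow side instead make glutamine from leftover ammonia, so the balance of periportal and pericentral genes describes how nitrogen handling is divided along the lobule. The genes described here are 10 enzymes of the periportal program, chosen by symbol: Cps1, Otc, Ass1, Asl and Arg1 of the urea cycle, Gls2, Sds, Hal and Uroc1 of amino acid breakdown, and Cyp2f2, a cytochrome P450 used as a periportal marker. All 10 were found among the 19348 genes of the deposited table, each on a single row, and all 10 passed the filter on low counts.

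The study measured messenger RNA by sequencing in liver of 5-week-old mice, in 5 libraries from mice labelled Stab1 knock-out (KO) and 3 from wild-type mice (WT). Stab1 encodes stabilin-1, an uptake receptor known from the endothelium of liver sinusoids and from macrophages rather than from hepatocytes. The labels name no strain, sex, allele design or treatment, and do not say that each library came from its own animal. The p-values below therefore rest on differences among these libraries, and some of that spread may be technical.

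Depth was 4.85 M counted reads in KO library 1, 8.94 to 10.5 M in KO libraries 2 to 5 and 10.1 to 10.8 M in the WT libraries. The members took 0.666% to 0.782% of the reads in KO libraries and 0.549% to 1.09% in WT libraries. Each had at least 348 reads in every library. Counting error was small beside the spread between libraries for the members with more reads. It was less so for Sds, which had the fewest reads and a coefficient of variation of 6.42% over the WT libraries. Stab1 was at 1.22 ± 0.378 CPM (counts relative to the scaled library total; SD, n = 5) in KO and 51.0 ± 4.52 CPM (SD, n = 3) in WT liver, lower in every KO library. KO library 1 stood apart, with 3 Xist reads and 320 reads of Ddx3y, a gene of the Y chromosome. The other 7 libraries had 4445 to 8222 Xist reads and 0 to 4 Ddx3y reads. By these reads KO library 1 was the only male one, and the main results that rest on it are also given without it. All 10 hepatocyte markers were present. Their summed level was 100293 to 157699 CPM in KO and 168391 to 179478 CPM in WT libraries, without overlap, and the separation was that of Alb alone (46519 to 103809 CPM in KO, 117989 to 130363 CPM in WT libraries). The other 9 summed to 50828 to 56274 CPM in KO and 49115 to 52683 CPM in WT libraries, which overlapped. Kidney markers, for an organ that also holds Ass1 and Asl, summed to at most 0.669 CPM in KO and 0.301 CPM in WT libraries, with Kap, Slc34a1, Slc12a1 and Aqp2 at 0. Markers of lung airway, which also holds Cyp2f2, summed to at most 1.11 CPM in KO and 0.553 CPM in WT libraries. Small intestine markers, for an organ that also holds Cps1 and Otc, summed to 25.4, 140, 68.8, 103 and 120 CPM in KO libraries 1 to 5 and 37.0, 42.8 and 72.8 CPM in WT libraries 1 to 3. Most of this was Fabp2. Alpi was at 0, and Lct and Muc2 were at most 0.111 and 0.196 CPM in KO libraries and 0 in WT libraries. Vil1 was at 1.15 to 2.93 CPM in KO and 0.184 to 1.04 CPM in WT libraries. Si was at 0.471 to 1.17 CPM in KO and 0.378 to 0.461 CPM in WT libraries. Both Vil1 and Si were low but higher in every KO library. Cholangiocyte markers, mostly Spp1, summed to 56.7, 132, 79.9, 103 and 99.5 CPM in KO and 53.9, 65.1 and 61.2 CPM in WT libraries. Among KO libraries both sums were highest in library 2 and lowest in library 1, as the level of Otc was. The level of Cps1 ran the other way, highest in library 1 (2802 CPM) and lowest in library 2 (1808 CPM). Sinusoidal endothelial markers summed to 216 to 259 CPM in KO and 289 to 357 CPM in WT libraries, and erythroid markers to 56.5 to 184 CPM in KO and 55.5 to 56.3 CPM in WT libraries, in each case without overlap. Pancreas markers, mostly Cela1 and with Cpa1 at 0, also separated, at 37.2 to 86.2 CPM in KO and 24.7 to 32.8 CPM in WT libraries. The part of Alb and of these sums in the results below was not tested. In whole liver, fewer cells of a type and less RNA per cell cannot be told apart.

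Only uniquely mapped reads were counted, and this bears on Ass1. The coding sequence of Ass1 is nearly the same as a processed pseudogene, Gm5424. In GENCODE M21 transcripts (GRCm38), the 2 aligned over 1240 bases with 99.5% identity and 6 differing positions, and the longest identical run was 398 bases. A stretch of 90 bases of the Ass1 coding sequence, transcript bases 552 to 641, is shown beside the pseudogene, with the differing bases in capitals.
Ass1: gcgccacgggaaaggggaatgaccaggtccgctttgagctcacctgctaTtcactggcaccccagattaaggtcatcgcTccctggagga
Gm5424: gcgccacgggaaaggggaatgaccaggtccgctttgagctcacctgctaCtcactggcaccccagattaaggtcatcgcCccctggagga
Reads covered 48.6% to 50.2% of the length of Ass1 in KO and 48.9% to 50.6% in WT libraries, while every other member was covered over at least 86.0% of its length in every library. The pseudogene itself held 3 to 10 reads in KO and 1 to 12 in WT libraries. Reads that match both copies equally would not count as uniquely mapped. The level of Ass1 is therefore uncertain and may be understated. The rule by which a read was called unique is not stated. Sds shares 365 bases at 99.7% identity with a transcript of its neighbour Plbd2, and 142 bases of Cyp2f2 are found in the antisense transcript Gm15883. Plbd2 held 395 to 836 reads in KO and 696 to 713 in WT libraries. Sds held 348 to 893 reads in KO and 1185 to 1381 in WT libraries. The sources used here do not give the strandedness of the libraries, so overlapping reads of these pairs cannot be told apart. No such match, of at least 100 bases at 98% identity, was found for the other 7 members.

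None of the 10 members passed the test between KO and WT liver. The log2 fold change (KO over WT) was below 0 for 8 members, as for 50.9% of all tested genes, and above 0 for Otc and Arg1. The smallest adjusted p was 0.301 (edgeR quasi-likelihood test, adjusted over 12338 tested genes). Across all tested genes 0.227% passed an adjusted p of 0.05. In the same edgeR fit at an unadjusted p of 0.05, 5 of the 10 members passed, 2 higher (background 7.73%) and 3 lower (background 5.9%), and 13.6% of all tested genes passed in either direction. The median log2 fold change of the members was -0.33, beside -0.01 over all tested genes. The levels in KO and WT libraries did not overlap for 2 members, Sds and Uroc1, both lower in KO, against 3.61% of tested genes that separated in that direction.

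**Figure D1:**
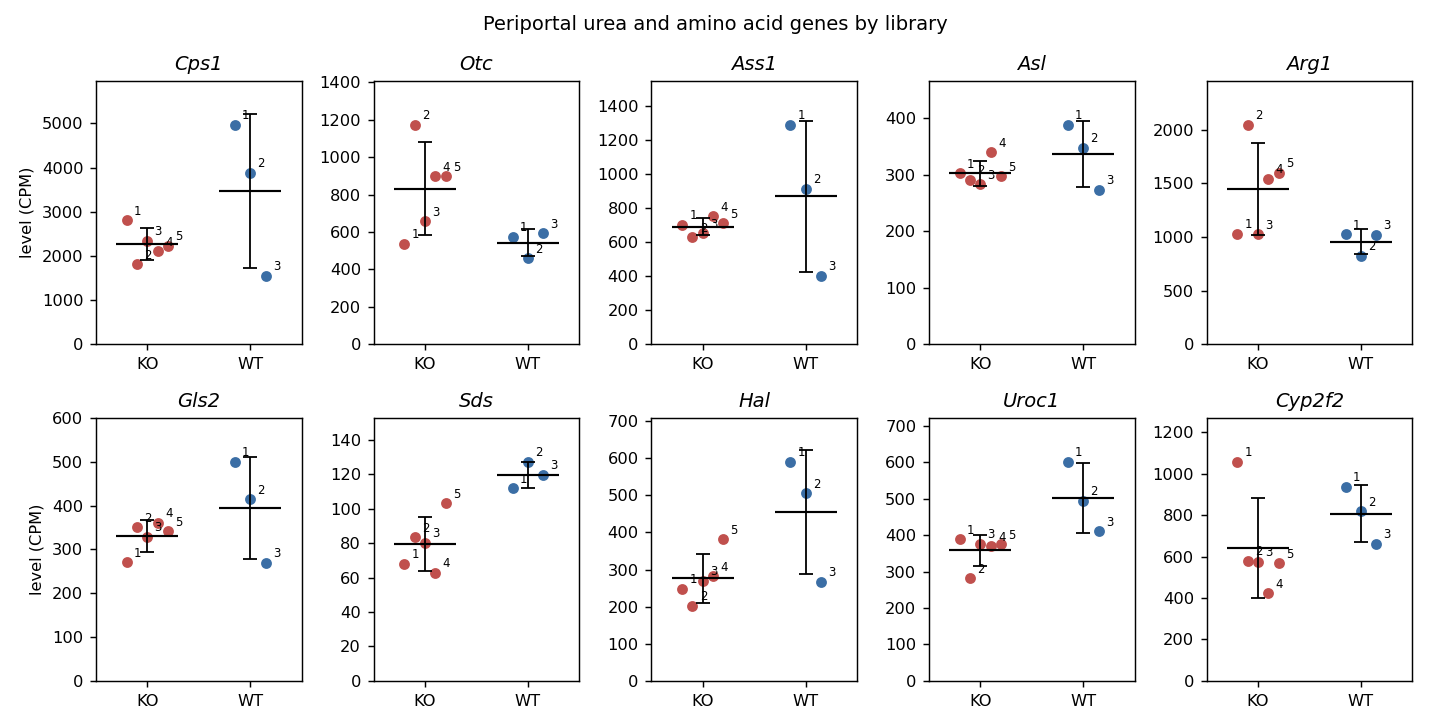
Level of each gene in CPM (vertical axis, from 0) in 5 KO and 3 WT libraries; points are libraries, numbered as in the labels, horizontal lines are means and bars are SD. For Cps1, Ass1 and Hal the 3 WT libraries spread over a wider range than the 5 KO libraries, while Sds and Uroc1 show no overlap between the groups.

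Cps1 encodes carbamoyl phosphate synthetase, the mitochondrial entry step that fixes ammonia. It was at 2802, 1808, 2343, 2111 and 2232 CPM in KO libraries 1 to 5, against 4966, 3881 and 1556 CPM in WT libraries 1 to 3. WT libraries 1 and 2 lay above every KO library and WT library 3 below every one, so the groups overlapped. The log2 fold change was -0.62 (SE 0.31, edgeR adjusted p = 0.388). Without WT library 3 it was -0.97 (adjusted p = 0.0581) and without WT library 1 it was -0.26 (adjusted p = 0.830).

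Ass1 and Asl encode argininosuccinate synthase and lyase, the cytosolic pair that joins citrulline to aspartate and releases arginine. Ass1 had 703, 629, 653, 754 and 713 CPM in KO libraries 1 to 5 and 1290, 916 and 403 CPM in WT libraries 1 to 3. As for Cps1, WT libraries 1 and 2 lay above and WT library 3 below all KO libraries (log2 fold change -0.33, SE 0.29, edgeR adjusted p = 0.598). Without WT library 1 the log2 fold change of Ass1 was 0.070, on the other side of 0. Asl had 303, 291, 283, 341 and 297 CPM in KO libraries and 389, 348 and 274 CPM in WT libraries, again with WT libraries 1 and 2 highest and WT library 3 lowest of all 8. Its log2 fold change was -0.15 (SE 0.15, edgeR adjusted p = 0.648), the smallest of the members. It was -0.034 without WT library 1 and -0.28 without WT library 3.

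Otc and Arg1 showed the other pattern. Otc encodes ornithine transcarbamylase, the mitochondrial enzyme that makes citrulline, and Arg1 encodes arginase 1, which releases urea at the last step. Otc was at 537, 1172, 657, 898 and 898 CPM in KO libraries 1 to 5, against 575, 461 and 593 CPM in WT libraries 1 to 3. Arg1 was at 1031, 2047, 1026, 1544 and 1599 CPM in KO libraries, against 1027, 826 and 1021 CPM in WT libraries. For both genes KO libraries 2, 4 and 5 were well above every WT library and WT library 2 was lowest. KO library 1 was within the WT range for Otc and just above it for Arg1, and KO library 3 was just above the WT range for Otc and within it for Arg1. Log2 fold changes were 0.62 (SE 0.25, edgeR adjusted p = 0.341) for Otc and 0.60 (SE 0.24, adjusted p = 0.344) for Arg1. Without KO library 1 they were 0.73 and 0.69 (adjusted p = 0.0807 and 0.100), and all of the remaining KO libraries then lay above the WT libraries for Otc.

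Otc and Arg1 shared a library profile. Over the 8 libraries the centred log2 CPM values of Otc and Arg1 differed by 0.0550 on average, the smallest value among the 45 pairs of members, and those of Cps1 and Otc by 0.739, the largest. Cps1 and Ass1 differed by 0.193, Ass1 and Asl by 0.198 and Cps1 and Asl by 0.342, the last close to the 0.393 between Asl and Arg1. Within a library the ratio of Otc to Arg1, in RPKM (reads relative to gene length and library total), was 0.342 to 0.421 in KO and 0.367 to 0.382 in WT libraries, although Arg1 itself ranged over 696 to 1335 RPKM in KO libraries. The ratio of Ass1 to Asl was 2.10 to 2.33 in the 5 KO libraries, but 3.23, 2.56 and 1.43 in WT libraries 1 to 3. Its size rests on the uncertain level of Ass1. Arg1 over Cps1 was 1.16, 3.58, 1.38, 2.31 and 2.26 in KO libraries 1 to 5, against 0.653, 0.672 and 2.07 in WT libraries 1 to 3, so that WT library 3 lay inside the KO range. These ratios were chosen after the values were seen, carry no test and do not depend on the scaling between libraries.

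**Figure D2:**
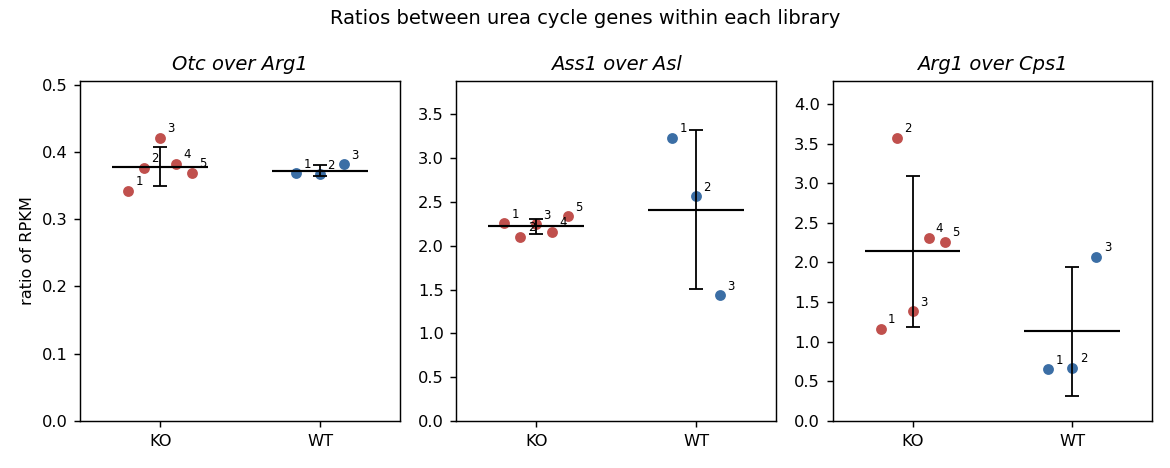
Ratios of RPKM between urea cycle genes within each library (vertical axes, from 0), 5 KO and 3 WT libraries; points are numbered libraries, lines are means and bars SD. Otc over Arg1 stays between 0.342 and 0.421 in all 8 libraries, whereas Ass1 over Asl runs from 1.43 to 3.23 among the WT libraries alone.

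As a share of the summed RPKM of the 5 cycle genes, Arg1 took 39.3% ± 6.55 in KO (SD, n = 5) and 28.9% ± 9.99 in WT libraries (SD, n = 3), and Cps1 took 20.3% ± 5.66 in KO and 29.7% ± 8.88 in WT libraries. In WT library 3 the shares of Arg1 and Cps1 were 40.4% and 19.5%, close to the KO means. The sum itself was 2077 to 2764 RPKM in KO and 1673 to 3014 RPKM in WT libraries. It includes the uncertain level of Ass1, so the sum and the shares carry that limit.

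Ordered by mean RPKM, Arg1 was highest in KO liver at 968 ± 262 RPKM (SD, n = 5), followed by Cps1, Ass1, Otc, Cyp2f2, Asl, Gls2, Uroc1, Hal and Sds. In WT liver Cps1 came first at 735 ± 371 RPKM (SD, n = 3), followed by Arg1, Ass1, Cyp2f2, Otc, Asl, Hal, Gls2, Uroc1 and Sds. The place of Ass1 is uncertain and may be too low. Its RPKM divides by the full gene length, and reads covered only 48.6% to 50.6% of it. Many neighbours were not separated. In KO libraries the ranges of neighbours were apart at only 3 places, below Arg1, below Cyp2f2 and below Asl, and in WT libraries at 2, below Cyp2f2 and below Uroc1. Sds was last in both groups, at 68.2 ± 11.7 RPKM in KO and 102 ± 7.30 RPKM in WT liver.

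Among the enzymes of amino acid breakdown, Sds had the smallest p of the 10 members. It encodes serine dehydratase, which turns serine into pyruvate and ammonia. Sds was at 68.1, 83.5, 80.1, 62.9 and 103 CPM in KO libraries 1 to 5, against 112, 127 and 120 CPM in WT libraries 1 to 3. Every KO library lay below every WT library, and here WT library 3 did not stand apart (log2 fold change -0.59, SE 0.17, unadjusted p = 0.00548, edgeR adjusted p = 0.301). Fits that omitted 1 library at a time gave log2 fold changes of -0.70 to -0.51. In all of these fits, reads in the stretch that Sds shares with Plbd2 could not be told apart.

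Hal and Uroc1 encode histidase and urocanase, the consecutive first enzymes of histidine breakdown. Hal was at 248, 202, 269, 282 and 382 CPM in KO libraries, against 591, 506 and 267 CPM in WT libraries. WT libraries 1 and 2 were above every KO library, and WT library 3 was in the middle of the KO range (log2 fold change -0.72, SE 0.27, edgeR adjusted p = 0.334). Reads covered 86.0% to 97.5% of the length of Hal in KO and 97.1% to 99.4% in WT libraries. Uroc1 was at 388, 282, 376, 370 and 375 CPM in KO libraries, against 602, 494 and 410 CPM in WT libraries. All WT libraries were above all KO libraries, though WT library 3 only just (log2 fold change -0.49, SE 0.17, edgeR adjusted p = 0.333).

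Gls2 encodes the liver-type glutaminase, which feeds ammonia from glutamine to the urea cycle in periportal cells. It was at 271, 350, 329, 361 and 342 CPM in KO libraries, against 500, 415 and 270 CPM in WT libraries. WT library 3 and KO library 1 were lowest and level with each other (log2 fold change -0.26, SE 0.20, edgeR adjusted p = 0.550). The log2 fold change of Gls2 was -0.048 without WT library 1 and -0.47 without WT library 3. Cyp2f2 was at 1058, 580, 576, 423 and 569 CPM in KO libraries, against 938, 819 and 662 CPM in WT libraries. KO library 1, the male library, was the highest of all 8 and the other 4 KO libraries were below every WT library (log2 fold change -0.33, SE 0.27, edgeR adjusted p = 0.567). Without it the log2 fold change was -0.59 (adjusted p = 0.0892).

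**Figure D3:**
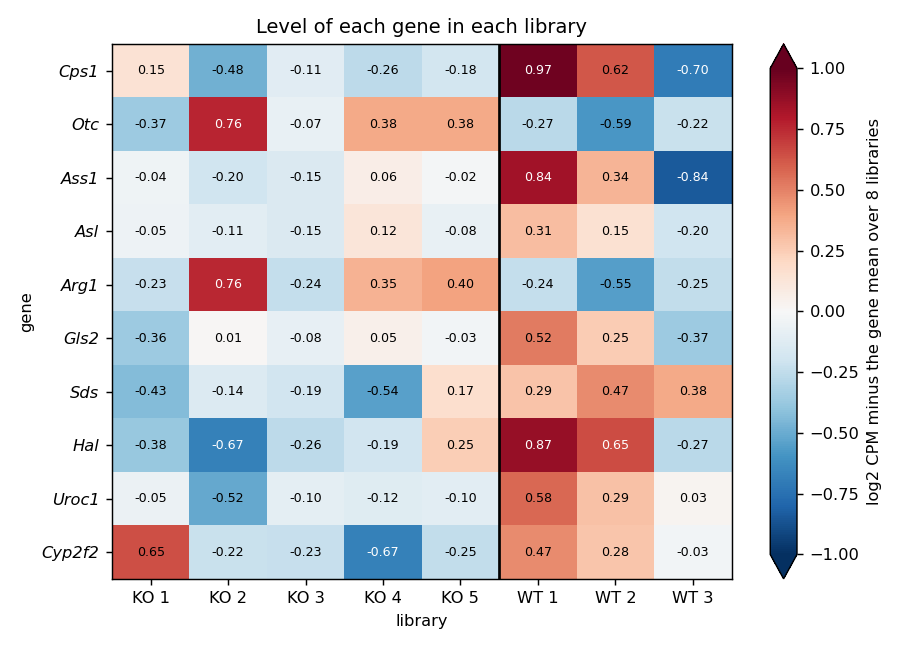
Log2 CPM of each gene minus its mean over the 8 libraries (colour and printed value), genes in rows and libraries in columns, KO left of the line and WT right of it. WT library 1 is high for Cps1 (0.97), Ass1 (0.84) and Hal (0.87), WT library 3 is low for Cps1 (-0.70) and Ass1 (-0.84), and Otc and Arg1 share a profile of their own with KO library 2 highest (0.76 for both).

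For several members the WT libraries differed widely among themselves. Over all compared genes WT library 3 departed as well. The difference between libraries, as chi-square per gene, was 52.9 to WT library 1 and 48.0 to WT library 2. It was 11.4 between WT libraries 1 and 2. Between KO libraries it was 65.5 to 85.3 for pairs with KO library 1 and 17.5 to 42.6 for the other pairs. WT library 3 was the lowest WT library for 7 of the 10 members; the share of all genes with this order was not counted. Its level was 0.352 times the mean of the other 2 WT libraries for Cps1, 0.365 times for Ass1, 0.488 times for Hal and 0.590 times for Gls2, but 1.10 times for Arg1 and 1.15 times for Otc, and Sds was level in the 3 WT libraries. The coefficient of variation over the WT libraries was 50.3% for Cps1 and 51.2% for Ass1, against 16.1% and 7.20% over the KO libraries for the same genes in that order. For Otc and Arg1 it was 13.2% and 12.0% in WT, against 29.6% and 29.7% in KO libraries in the same order, so the spread of this pair was on the KO side.

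The evenness of read coverage along genes also differed between libraries. It was measured as the median percent of gene length covered within bins of reads per kilobase, averaged over the bins. It was 73.3%, 69.6%, 72.3%, 70.7% and 70.8% in KO libraries 1 to 5 and 74.1%, 73.7% and 71.0% in WT libraries 1 to 3. The highest values belonged to WT libraries 1 and 2, in which Cps1, Ass1 and Hal were highest, and the lowest to KO library 2, in which Otc and Arg1 were highest. With this evenness as a covariate the log2 fold changes were -0.030 for Cps1, 0.11 for Ass1, 0.24 for Otc and 0.25 for Arg1, and that of Sds was -0.65, with 0 members passing in that fit (background 0.186%). With 3 WT libraries, evenness and genotype are partly aligned, and the part of coverage in these differences cannot be told apart.

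**Figure D4:**
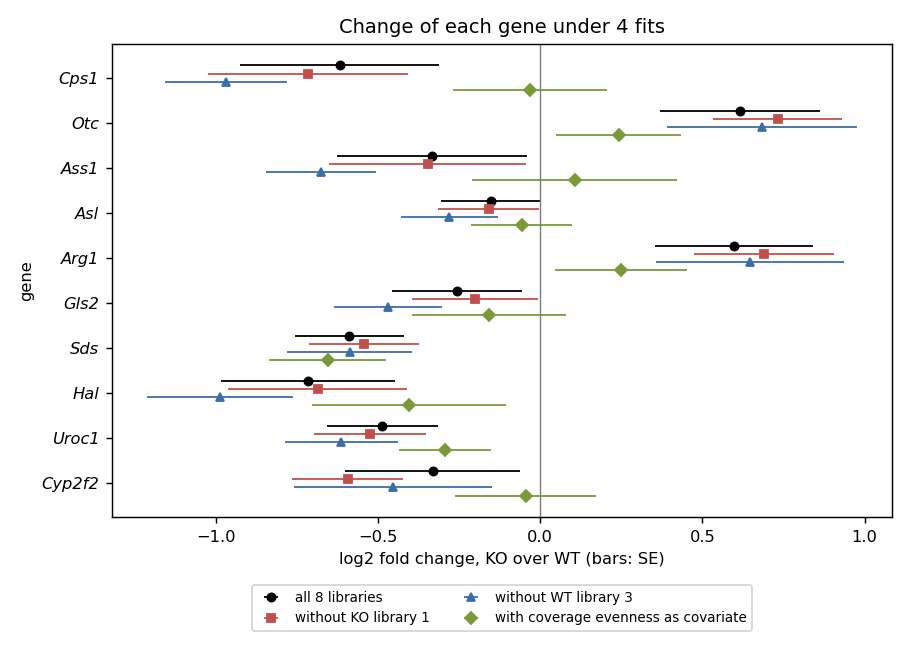
Log2 fold change, KO over WT (horizontal axis; bars are SE), of each gene with all 8 libraries, without KO library 1, without WT library 3, and with coverage evenness as a covariate. Sds stays between -0.65 and -0.54 in these 4 fits, while Cps1 runs from -0.97 without WT library 3 to -0.030 with the covariate.

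Leaving out a library changed counts over the members but not edgeR's calls. Without KO library 1, 0 of 10 members passed (background 0.928%), 7 had an unadjusted p below 0.05 (background 25.5%), and the groups did not overlap for 4, Otc, Sds, Uroc1 and Cyp2f2 (background 18.3%). Without WT library 3, again 0 passed (background 0.745%), 7 had an unadjusted p below 0.05 (background 22.4%), and 7 did not overlap, all lower in KO (background 14.3%): Cps1, Ass1, Asl, Gls2, Sds, Hal and Uroc1. The DESeq2 Wald test called 0 members with all libraries (background 1.03%). Without KO library 1 it called 4, Otc (adjusted p = 0.0119) and Arg1 (0.0315) higher and Cyp2f2 (0.0254) and Sds (0.0485) lower, against a background of 8.61%.

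The members Gls2, Otc and Cyp2f2, were also set against a pericentral gene within the same library. Gls2 over Glul, the glutamine synthetase of the last pericentral cell layer, gave log2 ratios of -1.34, -1.18, -1.79, -1.43 and -1.36 in KO libraries 1 to 5 and -1.44, -1.98 and -2.19 in WT libraries 1 to 3. The mean was -1.42 ± 0.227 in KO (SD, n = 5) and -1.87 ± 0.389 in WT (SD, n = 3), a difference of 0.45 (exact two-sided permutation p = 0.0536, adjusted over the 3 ratios 0.0804). Without WT library 3 that difference was 0.29 (adjusted exact permutation p = 0.238). Otc over Oat, the pericentral ornithine aminotransferase, was 0.36 to 1.69 in KO libraries and -0.42 to 0.08 in WT libraries without overlap, a difference of 1.02 (exact permutation p = 0.0357, adjusted 0.0804). KO library 1 gave the highest of these ratios, 1.69, with Oat at 166 CPM there against 343 to 701 CPM in the other KO libraries. Without it the difference was 0.81. Cyp2f2 over Cyp2e1, a pericentral cytochrome P450, was -4.24 to -2.18 in KO and -3.76 to -2.25 in WT libraries, with KO library 1 and WT library 1 highest in their groups (difference -0.61, exact permutation p = 0.411, adjusted 0.411). This difference was -0.93 without KO library 1, -0.28 without WT library 1 and -1.04 without WT library 3 (adjusted exact permutation p = 0.129, 0.905 and 0.238). The smallest p that the 56 divisions of 8 libraries allow is 0.0179. Before adjustment it is 0.0286 with a KO library left out and 0.0476 with a WT library left out. The p-values with a library left out therefore cannot be compared with those of all 8 libraries.

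**Figure D5:**
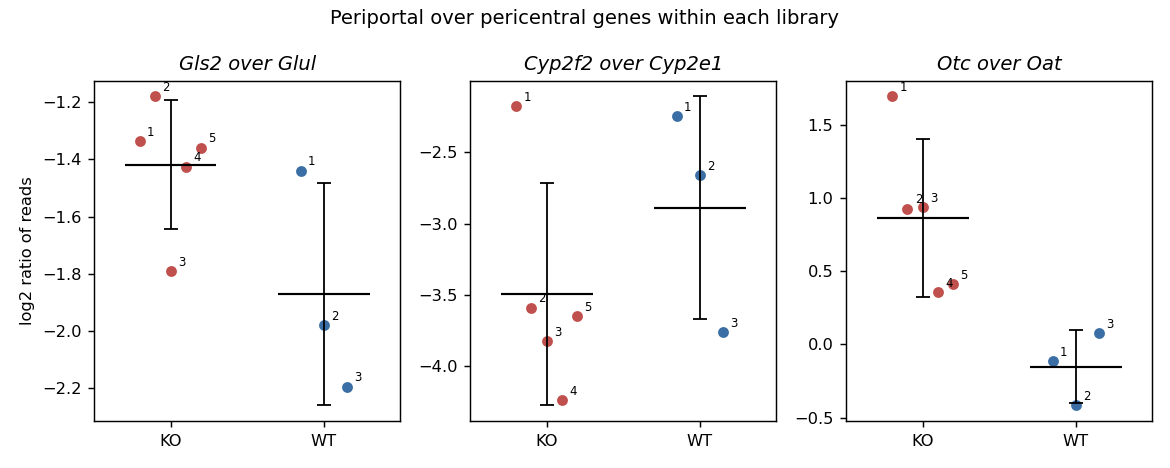
Log2 ratio of reads of a periportal over a pericentral gene within each library (vertical axes), 5 KO and 3 WT libraries; points are numbered libraries, lines are means and bars SD. Otc over Oat is above 0.35 in every KO library and below 0.08 in every WT library, whereas the groups overlap for the other 2 ratios.

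Other genes of nitrogen handling were read in the same way, from lists made with earlier results known. Over all tested genes 50.9% had a log2 fold change below 0, 7.73% were higher and 5.9% lower at an unadjusted p of 0.05, and DESeq2 called 1.03%, which is the background for each list. Of 10 further urea cycle and ammonia genes 7 were tested and 0 passed by edgeR or DESeq2 (2 below an unadjusted p of 0.05, both lower), with 3 log2 fold changes above 0 and 4 below, and a median of 0.00. Glud1, glutamate dehydrogenase, was at 1287 ± 162 CPM in KO and 1771 ± 201 CPM in WT liver (SD, n = 5 and 3), and its groups did not overlap (log2 fold change -0.46, edgeR adjusted p = 0.332). Glul was at 893 ± 173 CPM in KO and 1410 ± 206 CPM in WT liver, also without overlap (-0.66, adjusted p = 0.297). The mitochondrial aspartate-glutamate carrier Slc25a13 had a log2 fold change of -0.13 and the channel gene Aqp9 one of 0.11 (edgeR adjusted p = 0.636 and 0.746). That of Aqp9 was 0.048 without WT library 1 and 0.24 without WT library 3.

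Of 50 genes of amino acid breakdown 48 were tested and 0 passed by edgeR, 4 being lower at an unadjusted p of 0.05, while DESeq2 called 1, Tat. There were 27 log2 fold changes above 0, 21 below and a median of 0.06. The smallest p-values were those of Tat, Csad, Acmsd and Amt. Tat, tyrosine aminotransferase, was at 538, 399, 450, 373 and 365 CPM in KO libraries and 1126, 946 and 474 CPM in WT libraries (log2 fold change -0.998, SE 0.26, edgeR adjusted p = 0.264). WT library 3 lay inside the KO range, as it did for Hal. Csad, of taurine synthesis, had a log2 fold change of -0.79, Acmsd, of tryptophan breakdown, one of -1.18, and Amt, of the glycine cleavage system, one of -0.69 (edgeR adjusted p = 0.327, 0.350 and 0.356). Without KO library 1 Csad passed (-1.03, adjusted p = 0.0264), and without WT library 3 Tat, Acmsd and Gldc did, the last named after its values were seen. Without WT library 1 the log2 fold change of Acmsd was -0.67.

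Amino acid transporters were below 0 in 14 of 19 tested genes (background 50.9%), with a median of -0.16, and 0 of them passed by edgeR or DESeq2 (3 lower at an unadjusted p of 0.05, background 5.9%). Slc3a1, a subunit of the cystine and dibasic amino acid transporter, was at 41.9, 9.14, 12.1, 4.34 and 6.23 CPM in KO libraries, against 54.1, 51.1 and 27.5 CPM in WT libraries. KO library 1 lay within the WT range and the other 4 below it. The log2 fold change was -1.64 (edgeR adjusted p = 0.333), and without KO library 1 it was -2.48 and passed (adjusted p = 0.00953). Slc25a22, a mitochondrial glutamate carrier, had a log2 fold change of -0.60 (edgeR adjusted p = 0.333). It was at 308 CPM in WT library 3, against 186 and 192 CPM in the other WT libraries, and without WT library 3 its log2 fold change was -0.33.

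Of 17 other periportal genes all were tested and 0 passed by edgeR (5 lower at an unadjusted p of 0.05, background 5.9%; DESeq2 called Tat, background 1.03%), 5 with log2 fold changes above 0 and 12 below (background 50.9%), with a median of -0.34. Beside Tat, the smallest p-values were those of Aldh1b1, a mitochondrial aldehyde dehydrogenase (log2 fold change -0.89, edgeR adjusted p = 0.302), Etnppl, the phosphoethanolamine phospholyase (-0.81, adjusted p = 0.307), and Igfals, the acid-labile subunit that carries insulin-like growth factors in blood (-0.51, adjusted p = 0.331). Igfals was at 158 ± 26.1 CPM in KO and 225 ± 16.2 CPM in WT liver, without overlap. Without WT library 3, Tat and Aldh1b1 passed, and without WT library 1 Aldh1b1 and Etnppl had log2 fold changes of -0.58 and -0.48. Of 18 pericentral genes all were tested and 0 passed by edgeR or DESeq2 (2 lower at an unadjusted p of 0.05), 9 above 0 and 9 below, with a median of 0.00. After Glul came Slc13a3, a dicarboxylate transporter (-0.79, adjusted p = 0.332), Lgr5, a Wnt target (-0.53, adjusted p = 0.391), and Slc1a2, a glutamate transporter (-0.29, adjusted p = 0.542), which was at -0.16 without KO library 1 and -0.18 without WT library 3.

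Among 30 tested regulators of these genes, which include the glucagon and glucocorticoid receptors, C/EBP and HNF factors and amino acid stress genes, 0 passed by edgeR (1 higher and 2 lower at an unadjusted p of 0.05; DESeq2 called Sik1), 13 above 0 and 17 below, with a median of -0.02. Sik1, a salt-inducible kinase induced by cAMP, was at 11.7, 6.58, 9.90, 5.19 and 4.85 CPM in KO libraries, against 23.2, 23.0 and 14.4 CPM in WT libraries, without overlap. Its log2 fold change was -1.42 (SE 0.30, edgeR adjusted p = 0.168), and it passed without KO library 1 (-1.61, adjusted p = 0.0264). Ppp1r15a, a stress gene that promotes dephosphorylation of eIF2α, had a log2 fold change of 0.51 (edgeR adjusted p = 0.336).

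Among the genes outside these lists whose library profile was most like the mean profile of the 10 members were Iqgap2, Sema6d, Nfatc3 and Rreb1. They were taken from 7793 tested genes with a mean of at least 10 CPM, and their centred log2 CPM differed from the members' mean by 0.0561 to 0.0693 on average over the 8 libraries. Asl was the member closest to that mean (0.0814) and Otc the farthest (0.433).

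Promoter sequences were available from RefSeq (GRCm38.p6) for 5 members, and those of Otc and Hal are shown as examples of a gene with a log2 fold change above 0 and of one below. Each gives the 250 bases before the start, 5′ to 3′, with capitals for matches of 4 motifs on both strands: TGACG (a cAMP response half-site), TTGCNNAA (a C/EBP motif), AGNACA (a steroid receptor half-site) and TATAA.
Otc, chrX:10252055-10252304, plus strand: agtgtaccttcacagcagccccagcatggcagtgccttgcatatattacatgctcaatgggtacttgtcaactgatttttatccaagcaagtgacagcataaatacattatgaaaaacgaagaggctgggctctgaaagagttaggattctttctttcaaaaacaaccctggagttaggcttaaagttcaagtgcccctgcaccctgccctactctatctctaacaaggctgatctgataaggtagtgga
Hal, chr10:93488518-93488767, plus strand: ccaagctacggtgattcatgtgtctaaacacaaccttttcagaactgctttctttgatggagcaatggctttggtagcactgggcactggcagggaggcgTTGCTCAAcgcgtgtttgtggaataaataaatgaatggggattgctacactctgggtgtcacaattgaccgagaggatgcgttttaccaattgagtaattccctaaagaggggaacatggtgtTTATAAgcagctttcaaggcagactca
The Hal window held 1 match of TTGCNNAA, which starts 150 bases before the start, and overlapping matches of TATAA on both strands from 27 bases before it. The Otc, Ass1, Uroc1 and Cyp2f2 windows held none of the 4 motifs. Of 32851 promoter windows, 9.56% held TTGCNNAA, 22.8% TATAA, 17.8% TGACG and 44.7% AGNACA. The share of G and C was 75.6% in the Ass1 window and 43.6% to 55.6% in the other 4, with a median of 52.4% over all windows. A match is a description of letters only.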

How the data were processed

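Liver RNA was isolated with a Nucleo-Spin kit, checked on a Bioanalyzer and made into Illumina libraries at BGI, per the labels' protocols. Aligner, build, annotation and strandedness: not given in the sources used here. Per the file headers, the deposited table gives for each library the count of uniquely mapped reads per gene, the percent of gene length covered, and RPKM. The deposited RPKM values equalled those recomputed from counts, lengths and totals, and were used only to compare genes within a library. The deposited coverage percent served only for evenness and to describe members.

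A dash was read as 0, and 113 gene identifiers on 229 rows were summed, leaving 19348 genes. Counts were filtered with filterByExpr, scaled by TMM and tested over 12338 genes in R 4.3.3 with edgeR 4.0.16 (quasi-likelihood F test, genotype only, Benjamini-Hochberg over all tested genes, called below 0.05). The biological coefficient of variation was 24.8%. SE is the size of the log2 fold change divided by the square root of F. DESeq2 1.42.0 was an alternative. On simulated counts for this comparison (12334 tested genes), edgeR called 50 of 98 genes changed 2-fold, 99 of 99 changed 4-fold and 8 of 12137 unchanged genes.

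Ratios used 0.5 reads added to each count. Near copies were sought with blastn 2.17.0. The members and lists were chosen with earlier results of these data known. Named genes are all members, in each list those with the smallest p (4, or 2 for transporters and regulators), the 5 closest profiles, of which 1 is not reported here, and Stab1 as the check of the labels. No libraries agreed within sampling noise. Tables were handled in Python 3.11.15 with pandas 2.3.3 and figures drawn with matplotlib 3.10.9.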

Additional observations from a re-analysis of the deposited data

Results flagged for a closer look

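Among 13 sets of 5 KO values examined (10 genes and 3 ratios), 2 held a library whose gap to its nearest neighbour was a large share of the whole range, where chance flags about 1 in 20 sets. Uroc1 was at 282 CPM in KO library 2, against 370 to 388 CPM in the other KO libraries, a gap of 0.831 of the range. That library also had the lowest coverage evenness and the highest Otc and Arg1. Cyp2f2 was at 1058 CPM in KO library 1, against 423 to 580 CPM in the other KO libraries, a gap of 0.753 of the range. That library was the only male and the shallowest one. The part of sex, depth or coverage in either value was not tested.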

How the results depend on the processing

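edgeR called 0 members with all libraries, in each fit that omitted 1 library and under its other 7 alternatives, and DESeq2 called 0, but 4 without KO library 1. Over all genes, edgeR called 28, DESeq2 134, DESeq2 without KO library 1 1057, and edgeR with the replicate block 8, while fits that omitted 1 library called 13 to 114. With such omissions edgeR called 0 to 3 of 48 amino acid breakdown genes and 0 to 1 of 19 transporters. It called 0 to 2 of 17 other periportal genes and 0 to 1 of 30 regulators. The background was 0.928% without KO library 1 and 0.745% without WT library 3. DESeq2 called 1 of 49 breakdown genes, 1 of 17 other periportal genes and 1 of 31 regulators (background 1.03%). Without KO library 1 it called 6 of 49 breakdown genes, 4 higher and 2 lower, and 3 of 16 other periportal genes, all lower. It also called 1 of 10 urea cycle, 1 of 19 transporter, 1 of 18 pericentral and 1 of 30 regulator genes, all lower (background 8.61%). The lists share genes. Tat was counted under both breakdown and other periportal genes, and Glul under both urea cycle and pericentral genes. With the evenness covariate, 1 of 17 other periportal genes passed (background 0.186%), Mfsd2a, named after its values were seen. It also passed with that covariate and no KO library 1.

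The median log2 fold change of the members was -0.53 to -0.13 when 1 library was omitted, -0.050 with the evenness covariate and 0.089 with that covariate and no KO library 1. In that last fit Cps1 (0.20), Ass1 (0.46), Asl (0.028), Gls2 (0.15), Acmsd (0.35) and Amt (0.21) were above 0, as was Ass1 with the covariate alone (0.11). Ass1 ran from -0.68 to 0.070 when 1 library was omitted. The causes were not tested. A correction for gene length, chosen after seeing the data, gave a members' median of -0.41.

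Replicate numbers did not pair the libraries: same-numbered libraries deviated with correlations of 0.124, -0.148 and -0.150. The replicate block called 0 members. With it the differences were 0.44 for Gls2 over Glul, -0.31 for Cyp2f2 over Cyp2e1 and 1.34 for Otc over Oat. Without it they were 0.45, -0.61 and 1.02 in the same order. KO libraries 4 and 5 have no WT library of the same number, so the differences with the block do not draw on them. In simulated counts for this comparison edgeR called 50 of 98 genes changed 2-fold. Every simulated gene had the same biological coefficient of variation, 24.8%, in KO and WT. In the WT libraries Cps1 and Ass1 varied more, with coefficients of variation of 50.3% and 51.2%. No change of less than 2-fold was simulated. Differences of the size seen here may be missed, at a rate that the simulation does not give.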
